A study of Homo sapiens with 6 samples.

Results

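The genes that charge tRNAs with amino acids, together with the receptor that carries tRNA out of the nucleus, were examined in HEK293T cells that over-expressed *USF1*. The list held 36 genes, taken by function: 19 cytosolic aminoacyl-tRNA synthetases, 14 mitochondrial ones, the tRNA export receptor *XPOT*, and *AIMP1* and *AIMP2*, which hold several synthetases together in a complex. Of these, 32 had at least 1 probeset annotated to that gene alone, among 9586 named genes on the arrays (17 cytosolic synthetases, 13 mitochondrial ones, *XPOT* and *AIMP1*). *MARS1*, *QARS1* and *TARS2* were covered only by probesets that are also annotated to a microRNA gene, and they are given apart. *AIMP2* is not analysed here. HEK293T is a human embryonic kidney line with the large T antigen of SV40. One group of cultures received a plasmid with the *USF1* coding region (USF1) and the other the empty vector (Empty vector), with RNA taken 48 hours after transient transfection and hybridized to 3 Affymetrix arrays per group. Both groups were therefore transfected, and no array of untransfected cells was analysed here. Values are given as deposited, on the log2 scale after RMA, so a difference of 1 is a 2-fold change.

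Aminoacyl-tRNA synthetases join each amino acid to its own tRNA, the step that gives the genetic code its meaning, and cytosolic and mitochondrial translation use largely separate sets of them. The mitochondrial enzymes are made from nuclear genes and imported. *GARS1* and *KARS1* are exceptions among the cytosolic genes, as each also encodes the mitochondrial form. Several cytosolic genes of the family are induced by the transcription factor ATF4 when amino acids run short, and *USF1* itself encodes a basic helix-loop-helix factor that binds E-box sequences.

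Empty vector replicate 1 stood apart from the other Empty vector arrays, with an SD of the log2 difference over all probesets of 0.336 from each of them, against 0.182 between those. The actin 5' minus 3' control value, which falls as RNA is degraded, was -1.34 in Empty vector replicate 1 and -1.04 in Empty vector replicate 2, and between -0.681 and -0.493 on the other arrays. The same value for GAPDH was -0.582 in Empty vector replicate 1. In Empty vector replicate 2 it was -0.316, within the range of the other arrays, -0.345 to -0.256. The part of these differences in the results was not tested. The probeset named for *USF1* had means of 4.79 ± 0.13 (USF1) and 4.86 ± 0.43 (Empty vector; SD, n = 3 arrays each) with a difference of -0.071 (limma adjusted p = 0.836). As the plasmid holds the coding region alone and the sources used here do not give the position of its probes, this probeset does not check the labels. The paper reports over-expression of USF1 protein by western blot, which is not part of the array data. Of 8 marker genes listed for this cell line, 5 were measured, the neurofilament genes *NEFM*, *NEFL* and *INA*, vimentin (*VIM*) and *LIN28B*, with log2 values from 5.98 to 10.6 on single arrays, and *INA* was lower in USF1 cells (-0.39, SE 0.08, limma adjusted p = 0.024). The keratins *KRT8* and *KRT18* and the kidney factor *PAX2* had no probeset of their own in the table. Of 20 markers of blood, fibroblasts, endothelium, hepatocytes and adipocytes, 0 had a probeset in the table, from which the authors had removed probesets with mostly absent calls. As bulk RNA was measured, fewer cells that express a gene and less of its RNA per cell cannot be told apart. The sources used here do not say if each array had its own transfection, so the p-values reflect the spread among arrays of a group, and that spread may be purely technical.

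Genes for tRNA charging were lower in USF1 cells wherever a difference passed the test. With limma and an adjusted p-value under 0.05 (called, below), 8 of 32 genes were lower and 0 were higher, against 8.89% of all named genes lower and 5.18% higher. At an unadjusted p-value under 0.05 from limma, 15 of 32 were lower and again 0 higher, against 23.9% of all named genes lower and 10.6% higher. The methods' t-test, with unequal variances, gave 15 lower and 0 higher at that threshold, against 15.8% and 8.3% of all named genes. The genes called were the mitochondrial enzymes *HARS2*, *FARS2* and *NARS2*, the cytosolic enzymes *FARSB*, *YARS1*, *TARS1* and *CARS1*, and the scaffold gene *AIMP1*. Their falls lay between -0.33 and -0.64 on the log2 scale, which is 1.26-fold to 1.56-fold.

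The lower values were spread over the list beyond the genes that were called. The difference was negative in 29 of 32 genes, where it was negative in 63.4% of all named genes, and the median difference was -0.15, against -0.079 over all named genes. With arrays centred on their medians, 25 of 32 differences were negative, with a median of -0.080 against -0.010 over all named genes. In 18 of 32 genes all 3 USF1 arrays lay below all 3 Empty vector arrays, against 27.5% of all named genes, and in 0 they lay above, against 12.6%. Among the 2397 named genes with the highest mean values (the top 25%), 117 were called lower, and of the 16 synthetase, scaffold and export genes there 4 were. Of all named genes called, 36.8% were higher in USF1 cells, and this share was 55.5% after centring and 49.8% after a further quantile normalization. The calls on the list stayed downward. After centring 5 of 32 genes were lower, against 565 of 9586 named genes. After quantile normalization 7 of 32 were lower, against 657 of 9586 named genes.

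**Figure D1:**
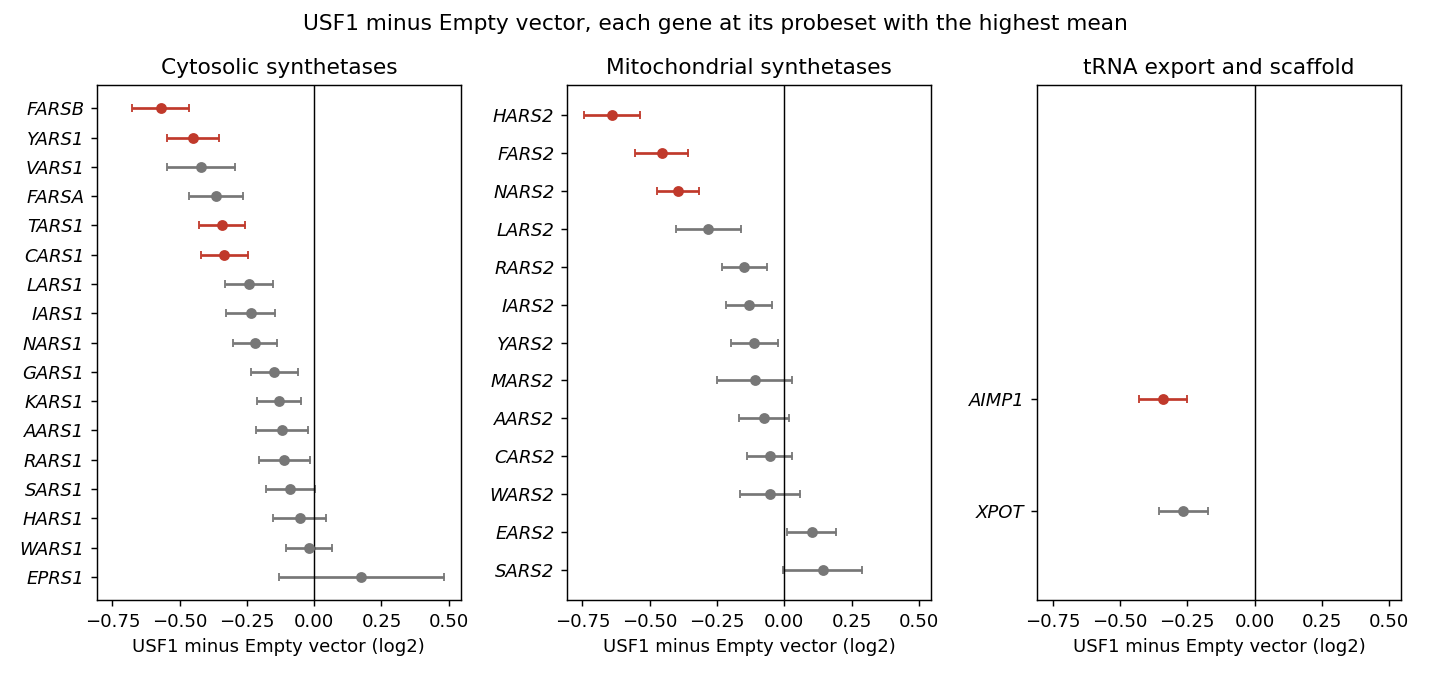
USF1 minus Empty vector log2 difference along the horizontal axis, bars giving the standard error, for the 32 measured genes (vertical axis), in red where called by limma at an adjusted p-value under 0.05. Red points lie at negative differences only, 4 among the cytosolic and 3 among the mitochondrial synthetases and 1 at *AIMP1*, and *EPRS1* has the widest error.

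The number of calls depended on single arrays. It was 5 without Empty vector replicate 1, without Empty vector replicate 3 or without USF1 replicate 2, in each case *FARSB*, *YARS1*, *FARS2*, *HARS2* and *NARS2*. It was 1, *HARS2*, without USF1 replicate 1 or without Empty vector replicate 2, and 0 without USF1 replicate 3 (11 lower and 0 higher at an unadjusted p-value under 0.05 from limma). Calls over all named genes were not counted without single arrays. A loss of calls on the list therefore cannot be told from a loss over all genes.

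*HARS2*, which encodes the mitochondrial histidyl-tRNA synthetase, had the largest fall of the list, whereas its cytosolic counterpart *HARS1* showed little difference. The *HARS2* values were 6.12, 6.26 and 5.97 on the USF1 arrays and 6.83, 6.64 and 6.80 on the Empty vector arrays. The groups lay well apart, and the log2 difference was -0.64 (SE 0.10, limma adjusted p = 0.00986), a 1.56-fold fall. *HARS1* stood at 8.03, 7.95 and 7.91 on the USF1 arrays and at 8.17, 7.89 and 7.997 on the Empty vector arrays. These ranges overlap, and the difference was -0.054 with a 95% interval of -0.28 to 0.17. It was 0.015 after centring. Within single arrays, the log2 ratio of *HARS1* to *HARS2* was between 1.69 and 1.94 in USF1 cells and between 1.20 and 1.34 in Empty vector cells.

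The 2 genes are neighbours that run away from each other on chromosome 5. In RefSeq's GRCh38.p14 annotation *HARS1* lies on the minus strand at chr5:140673905-140691370 and *HARS2* on the plus strand at chr5:140691455-140699305. The stretch between their annotated starts, at chr5:140691371-140691454 on the plus strand, has 84 bases and is shown because both genes start from it. Capitals mark matches on either strand to GGAAGT, a longer form of the GGAA core bound by ETS factors, and not the core alone:
between *HARS1* and *HARS2*: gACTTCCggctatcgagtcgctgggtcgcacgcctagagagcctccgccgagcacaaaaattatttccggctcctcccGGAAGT
The stretch holds 2 such matches, and 22.8% of RefSeq's promoter windows (250 bases before to 50 after each annotated start) hold at least 1 on either strand.

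All 3 measured genes for phenylalanyl-tRNA synthetases had lower values in USF1 cells, and 2 of them were called. The cytosolic enzyme is built of alpha subunits from *FARSA* and beta subunits from *FARSB*, and the mitochondrial enzyme is a single chain from *FARS2*. *FARSB*, at chr2:222566899-222656092, had values of 7.82, 8.03 and 7.77 on the USF1 arrays and 8.39, 8.57 and 8.36 on the Empty vector arrays, with no overlap and a log2 difference of -0.57 (SE 0.10, limma adjusted p = 0.0154). *FARSA* had 6.76, 6.51 and 6.70 in USF1 cells and 7.06, 6.91 and 7.10 in Empty vector cells. These also did not overlap, but the difference of -0.36 (SE 0.10) did not pass (limma adjusted p = 0.0517), and its second probeset was at -0.21 with overlapping arrays. *FARS2*, at chr6:5249934-5771583, had 5.85, 5.78 and 5.88 in USF1 cells and 6.44, 6.26 and 6.16 in Empty vector cells, which differ by -0.46 (SE 0.10, limma adjusted p = 0.0231). Both probesets of *FARS2* were called, with the second at -0.55 (SE 0.10, limma adjusted p = 0.0155).

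*YARS1*, *TARS1* and *CARS1* were the other cytosolic enzymes called. *YARS1*, the tyrosyl-tRNA synthetase, at chr1:32775239-32817358, had values of 10.19, 10.28 and 10.10 in USF1 cells and 10.76, 10.63 and 10.52 in Empty vector cells. The difference was -0.45 (SE 0.10, limma adjusted p = 0.024), and its groups were separated by more than the spread within either. *TARS1*, the threonyl-tRNA synthetase, at chr5:33440696-33468091, had 9.003, 8.96 and 8.89 against 9.38, 9.26 and 9.24, a difference of -0.34 (SE 0.09, limma adjusted p = 0.0383). *CARS1*, the cysteinyl-tRNA synthetase, at chr11:3000929-3057423, had 9.37, 9.18 and 9.19 against 9.60, 9.58 and 9.56. Its difference of -0.33 (SE 0.09) lay near the threshold (limma adjusted p = 0.0438), and its other probesets, at -0.30 and -0.052, were not called. Neither *TARS1* nor *CARS1* was called when any single array was left out, and neither was called after centring.

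*NARS2*, the mitochondrial asparaginyl-tRNA synthetase, showed the tightest values among the genes called. At chr11:78435968-78574864, it had 6.98, 7.01 and 6.999 on the USF1 arrays and 7.44, 7.36 and 7.38 on the Empty vector arrays. The groups did not overlap, and the difference was -0.39 (SE 0.08, limma adjusted p = 0.0199). The cytosolic gene *NARS1* had 9.17, 9.08 and 9.09 in USF1 cells and 9.33, 9.38 and 9.29 in Empty vector cells, which differ by -0.22 (SE 0.08) that did not pass (limma adjusted p = 0.108).

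**Figure D2:**
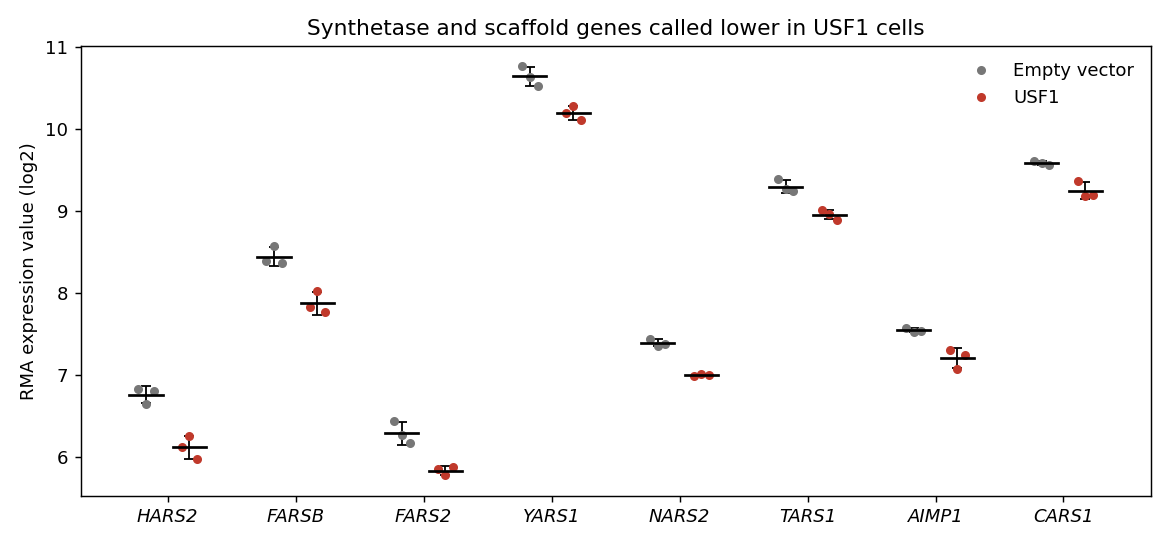
Log2 RMA values on the vertical axis for the 8 genes called, each array a point (Empty vector grey, USF1 red), long bars marking group means and error bars the SD (n = 3). No USF1 point reaches the lowest Empty vector point of its gene, and *HARS2* has the largest gap between means (6.12 against 6.76).

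*AIMP1* encodes a scaffold protein of the multi-synthetase complex, in which a set of cytosolic synthetases is held together, and it was called lower at 2 of its 3 probesets. At chr4:106315544-106349456, the gene had values of 7.31, 7.07 and 7.24 in USF1 cells and 7.57, 7.53 and 7.54 in Empty vector cells. The log2 difference was -0.34 (SE 0.09, limma adjusted p = 0.046). The other probesets were at -0.29 (SE 0.09, limma adjusted p = 0.0579) and -0.45 (SE 0.12, limma adjusted p = 0.0426), and at each of the 3 the groups did not overlap. The call at the probeset with the highest mean was lost when any single array was left out, and after centring.

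Of the 7 enzymes listed for that complex, 5 had a probeset of their own, and 0 were called at the probeset with the highest mean (2 were lower and 0 higher at an unadjusted p-value under 0.05 from limma). These were *IARS1* for isoleucine, at -0.24 (SE 0.09), and *LARS1* for leucine, at -0.24 (SE 0.09), both without overlap between the groups. *KARS1*, for lysine, was at -0.13 (SE 0.08), also without overlap, and *RARS1*, for arginine, at -0.11 (SE 0.10), with overlap. At dimmer probesets *KARS1* was at -0.084 with overlap, and *LARS1* at -0.17 without overlap and at -0.032 with overlap.

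*EPRS1*, the bifunctional enzyme for glutamate and proline, gave different answers at its 3 probesets. At the probeset with the highest mean it had values of 9.08, 8.91 and 8.93 in USF1 cells and 7.94, 9.27 and 9.19 in Empty vector cells. Empty vector replicate 1 was thus the lowest array of the 6, and the difference of 0.18 (SE 0.31) turned to -0.25 without it. The dimmest probeset showed the same low array, at 6.22 against 7.63 and 7.91 on the other Empty vector arrays and 7.42 to 7.45 on the USF1 arrays. At the remaining probeset Empty vector replicate 1 was not low. There the USF1 arrays had 8.54, 8.50 and 8.46 and the Empty vector arrays 9.004, 8.77 and 8.83, and this probeset was called lower at -0.37 (SE 0.09, limma adjusted p = 0.0388). Counting this probeset, 9 of 32 genes had a called probeset, a count that favours genes with several probesets and was not made over all named genes. Of the 51 probesets of the list, 11 were called lower and 0 higher, against 7.6% and 4.32% of all probesets.

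*XPOT*, the exportin that carries mature tRNA from the nucleus to the cytoplasm, had lower values on every USF1 array at both of its probesets but passed at neither. The gene lies at chr12:64404392-64451125. Its brighter probeset had 8.44, 8.59 and 8.47 in USF1 cells and 8.73, 8.88 and 8.68 in Empty vector cells. The difference was -0.26 with a 95% interval of -0.48 to -0.052 (limma adjusted p = 0.094). The dimmer one had 7.74, 7.68 and 7.50 against 8.21, 8.07 and 7.87, a difference of -0.41 (SE 0.11, limma adjusted p = 0.0516). *XPOT* was called when arrays were weighted by their quality in limma, at -0.31, and when its probesets were averaged, at -0.34. Other settings did not call it. These included centring, at -0.20, and a further quantile normalization, at -0.22. Leaving out any single array also gave no call for *XPOT*, with differences from -0.31 to -0.21. The nuclear export receptors *XPO1* and *XPO5* were at -0.070 (SE 0.09) and -0.26 (SE 0.09, limma adjusted p = 0.0895) and were not called. The arrays of the groups overlapped in *XPO1* but not in *XPO5*.

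Of 15 genes with several probesets, 11 had negative differences at each of them. The other 4 were *EPRS1*, *VARS1*, *WARS1* and *WARS2*, whose probesets lay on both sides of 0. *VARS1*, for valine, had 5.78, 5.42 and 5.43 in USF1 cells and 6.13, 5.87 and 5.89 in Empty vector cells at its brighter probeset, a difference of -0.42 (SE 0.13, limma adjusted p = 0.0641) without overlap. Its dimmer probeset was at 0.13 (SE 0.15) with overlapping arrays. *WARS1*, the tryptophanyl-tRNA synthetase known for its induction by interferon, was at -0.019 (95% interval -0.21 to 0.18) and 0.057 (95% interval -0.14 to 0.25).

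**Figure D3:**
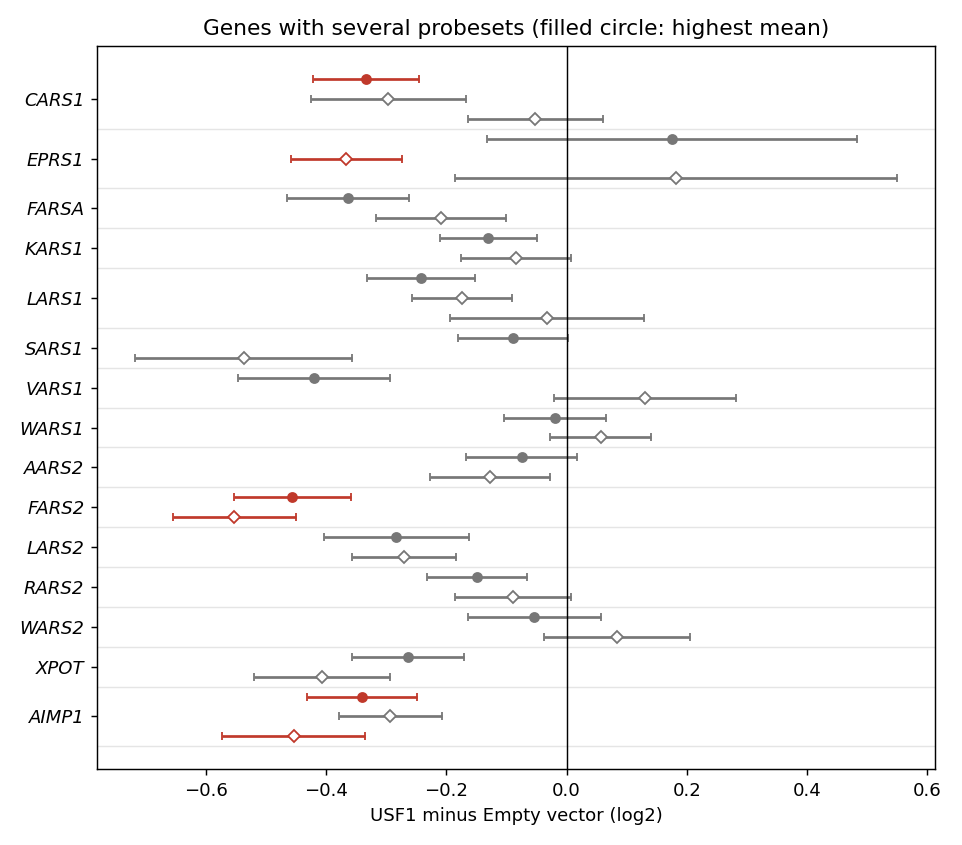
USF1 minus Empty vector log2 difference along the horizontal axis, bars giving the standard error, at every probeset of the 15 genes that have several (vertical axis), filled circles for the probeset with the highest mean and open diamonds for the others, in red where called by limma at an adjusted p-value under 0.05. *FARS2* has 2 red points, *AIMP1* 2 of 3, and *EPRS1* 1 of 3, left of its other points.

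The remaining cytosolic genes were not called. *GARS1*, for glycine, was at -0.15 (SE 0.09), without overlap between the groups. *AARS1*, for alanine, was at -0.12 (SE 0.10) and *SARS1*, for serine, at -0.089 (SE 0.09), both with overlapping arrays, while the dimmer probeset of *SARS1* was at -0.54 (SE 0.18, limma adjusted p = 0.0842). Among the mitochondrial genes not called, *LARS2* for leucine, *RARS2* for arginine and *IARS2* for isoleucine had the smallest p-values. *LARS2* had 6.65, 6.60 and 6.44 in USF1 cells and 7.06, 6.84 and 6.64 in Empty vector cells, which differ by -0.28 (SE 0.12, limma adjusted p = 0.153) with overlapping arrays. *RARS2* had 6.45, 6.40 and 6.33 against 6.60, 6.49 and 6.53, a difference of -0.15 (SE 0.08, limma adjusted p = 0.26). *IARS2* had 8.68, 8.60 and 8.65 against 8.85, 8.79 and 8.68, a difference of -0.13 (SE 0.09, limma adjusted p = 0.334). In *RARS2* and *IARS2* the groups did not overlap, though in *IARS2* the nearest arrays of the groups were almost level. At dimmer probesets *LARS2* was at -0.27 without overlap (limma adjusted p = 0.0748) and *RARS2* at -0.090 with overlap. *YARS2* (-0.11), *MARS2* (-0.11), *AARS2* (-0.075), *CARS2* (-0.054) and *WARS2* (-0.053) had overlapping arrays, and so had *EARS2* (0.10) and *SARS2* (0.14), which with *EPRS1* were the genes of the list with positive differences. The signs of *HARS1*, *WARS1*, *CARS2* and *WARS2* turned after centring.

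At the probesets shared with a microRNA gene, *MARS1*, for methionine, was called at 1 of 3. Its brightest probeset had 8.62, 8.82 and 8.57 in USF1 cells and 9.06, 9.04 and 8.89 in Empty vector cells, which differ by -0.33 (SE 0.10, limma adjusted p = 0.0668). The next had 8.12, 8.28 and 8.03 against 8.46, 8.59 and 8.51, a difference of -0.38 (SE 0.09, limma adjusted p = 0.037), and at all 3 the groups did not overlap. *TARS2*, for mitochondrial threonine, was at -0.19 (SE 0.10, limma adjusted p = 0.207), and *QARS1*, for glutamine, at 0.14 (SE 0.19, limma adjusted p = 0.639) with values that varied widely within both groups.

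Cytosolic and mitochondrial enzymes were then compared, as the sets serve separate translation systems. Of 17 cytosolic synthetases 4 were called lower, and of 13 mitochondrial ones 3, with 0 higher in either (0 at an unadjusted p-value under 0.05 too). Over all named genes 8.89% were called lower and 5.18% higher. The mitochondrial set is not complete. It leaves out the mitochondrial synthetase genes *PARS2* (-0.53, called lower) and *VARS2* (-0.18, not called), which were counted among the related genes. The median difference was -0.22 for the cytosolic and -0.11 for the mitochondrial genes, and the largest falls were -0.57 (*FARSB*) and -0.64 (*HARS2*). The gap between these medians, -0.11, was -0.038 when the probesets of a gene were averaged and -0.072 without Empty vector replicate 2. On single arrays, the mean deviation of the 17 cytosolic genes from their 6-array means was -0.039, -0.13 and -0.15 in USF1 cells and 0.11, 0.11 and 0.10 in Empty vector cells. That of the 13 mitochondrial genes was -0.030, -0.086 and -0.14 against 0.16, 0.062 and 0.029. Both sets thus lay lower on each USF1 array than on any Empty vector array, whereas the mean over all named genes overlapped between the groups (-0.0034, -0.022 and -0.073 against 0.088, 0.026 and -0.015). The cytosolic minus the mitochondrial deviation also overlapped, at -0.046 to -0.0087 in USF1 cells and -0.049 to 0.073 in Empty vector cells. The array medians over all probesets, however, did not overlap, at 5.956, 5.921 and 5.883 in USF1 cells and 6.004, 5.998 and 5.963 in Empty vector cells. With arrays centred on these medians, the median difference was -0.15 for cytosolic and -0.043 for mitochondrial genes, against -0.010 over all named genes.

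**Figure D4:**
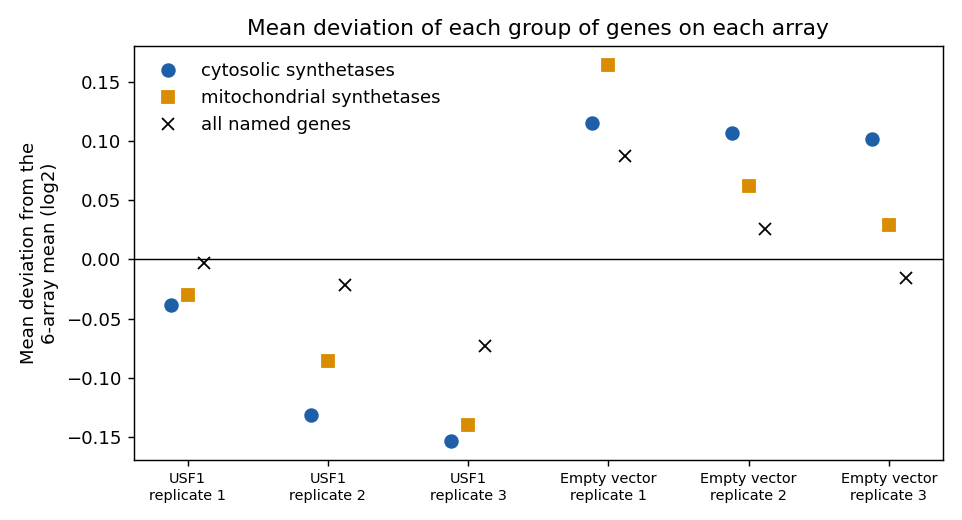
Mean deviation of each gene from its 6-array mean (log2, vertical axis) on each array (horizontal axis), averaged over 17 cytosolic synthetases (blue circles), 13 mitochondrial synthetases (orange squares) and all 9586 named genes (crosses). Both sets of synthetases lie below 0 on the USF1 arrays and above 0 on the Empty vector arrays, with the mitochondrial set spread from 0.029 to 0.16 in Empty vector cells.

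Enzymes for the same amino acid were set side by side across the compartments. In 13 pairings of a cytosolic gene with its mitochondrial partner, the cytosolic difference was the lower one in 6 and the higher one in 7, and both were negative in 11. *FARS2* was paired with both *FARSA* and *FARSB*, so the pairings are not independent, and it counts on each side of this split. The pairing of *EPRS1* rests on the probeset with a single low Empty vector array. The change of the cytosolic to mitochondrial ratio was 0.59 for *HARS1* and *HARS2*, 0.17 for *NARS1* and *NARS2*, -0.34 for *YARS1* and *YARS2* and -0.28 for *CARS1* and *CARS2*. In these 4 the arrays of the groups did not overlap, which gives an exact permutation p-value of 0.1 (2-sided), the smallest that 3 against 3 arrays allow, and 0.325 after adjustment over the 13 pairings. In *AARS1* and *AARS2*, *RARS1* and *RARS2*, *LARS1* and *LARS2*, and *WARS1* and *WARS2* the ratio changed by -0.044 to 0.041 with overlapping arrays.

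**Figure D5:**
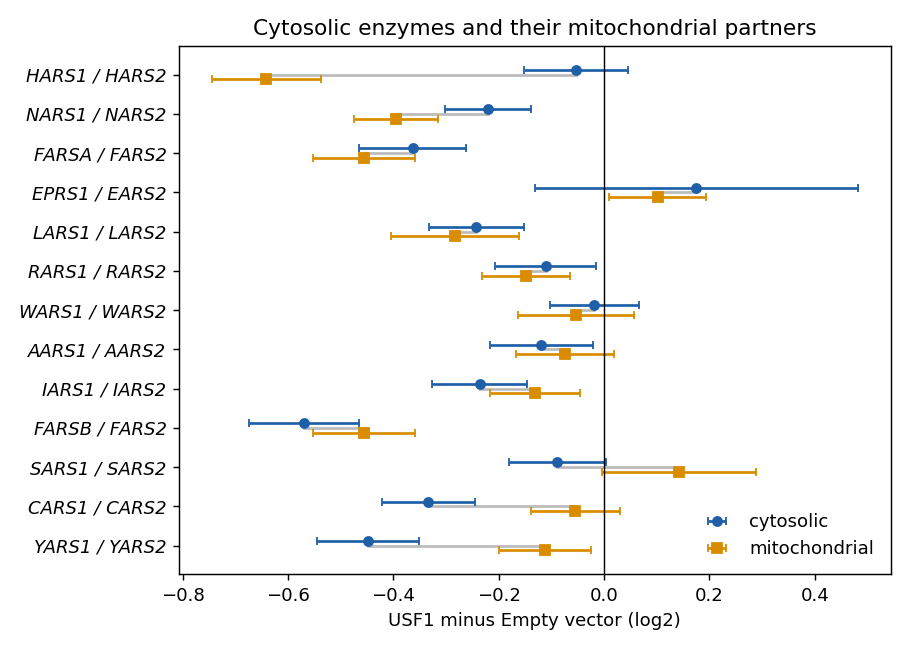
USF1 minus Empty vector log2 difference along the horizontal axis, bars giving the standard error, of cytosolic (blue circles) and mitochondrial (orange squares) synthetases of the same amino acid, joined by a grey line in each of 13 pairings (vertical axis). The points of *HARS1* (-0.054) and *HARS2* (-0.64) are farthest apart, and those of *YARS1* and *YARS2* (-0.45 and -0.11) and *CARS1* and *CARS2* (-0.33 and -0.054) lie the other way round.

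Promoter sequences were searched for the E-box that USF1 binds and for the amino acid response element through which ATF4 acts. RefSeq's promoter windows, from 250 bases before to 50 after a start (GRCh38.p14), covered 32 of the 36 genes, all but *AARS2*, *LARS1*, *VARS1* and *YARS1*. The E-box CACGTG, which reads the same on both strands, was in a window of 5 genes, *IARS1*, *CARS2*, *EARS2*, *MARS2* and *AIMP2*, and in 8.77% of all genes with a window. None of the 7 genes called and covered holds these letters in its window. The E-boxes of the measured genes are shown to place them beside the differences above, with CACGTG in capitals and each sequence 5′ to 3′ on the strand of its gene:
*IARS1*, chr9:92293866-92293895, minus strand: tggttcgttttcCACGTGgaggcgcaaaac
*CARS2*, chr13:110706501-110706530, minus strand: tgctgggatgcaCACGTGcttcgctaacag
*EARS2*, chr16:23557348-23557377, minus strand: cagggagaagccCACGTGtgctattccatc
*MARS2*, chr2:197705346-197705375, plus strand: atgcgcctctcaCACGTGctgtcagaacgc
The log2 differences of these 4 genes were -0.24, -0.054, 0.10 and -0.11, and none was called.

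The amino acid response element was searched as TGATGCAA on both strands. It was in a window of 6 of the 16 covered cytosolic synthetases and of 0 of the 13 covered genes among mitochondrial ones, and in 1.08% of all genes with a window. These 6 are shown because they are all cytosolic, with the element, or its reverse complement TTGCATCA, in capitals:
*AARS1*, chr16:70289675-70289704, minus strand: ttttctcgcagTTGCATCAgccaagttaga
*CARS1*, chr11:3057407-3057436, minus strand: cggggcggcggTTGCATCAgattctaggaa
*IARS1*, chr9:92293692-92293721, minus strand: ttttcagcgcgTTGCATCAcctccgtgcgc
*MARS1*, chr12:57488053-57488082, plus strand: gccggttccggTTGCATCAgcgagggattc
*NARS1*, chr18:57621804-57621833, minus strand: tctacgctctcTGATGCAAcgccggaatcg
*TARS1*, chr5:33440956-33440985, plus strand: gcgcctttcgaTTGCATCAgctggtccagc
Of these genes, *CARS1* and *TARS1* were called lower, *IARS1* and *NARS1* had lower values on every USF1 array without being called, *AARS1* overlapped between the groups, and *MARS1* was called lower at 1 shared probeset. A match of letters is a description of the window and not evidence of binding.

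Among 13 genes of the list counted as ATF4 targets from general knowledge, 12 were measured and 3 were called lower, *CARS1*, *TARS1* and *YARS1*, with 0 higher. This share, 25%, is that of the whole list. At an unadjusted p-value under 0.05 from limma, 7 of the 12 were lower and 0 higher, against 23.9% and 10.6% of all named genes. Of 23 other genes of the amino acid response that were measured, 17.4% were called lower and 4.35% higher, against 8.89% and 5.18% of all named genes. The 4 lower genes were asparagine synthetase *ASNS* at -0.41 (SE 0.09), *STC2*, which encodes a secreted glycoprotein, at -0.57 (SE 0.14), the transcription factor *CEBPB* at -0.42 (SE 0.11) and the cystine transporter *SLC7A11* at -0.44 (SE 0.12), and the 1 higher gene was the stress gene *NUPR1*, at 0.51 (SE 0.10). *DDIT3* (0.027), *TRIB3* (-0.012) and *EIF2AK4* (-0.038), the kinase that senses uncharged tRNA, were not called. Also uncalled were *CHAC1* (-0.41), *PSAT1* (-0.25) and *SLC3A2* (-0.30), with all USF1 arrays below all Empty vector arrays. This was so in 7 of the 23 genes and the reverse in 1, against 27.5% and 12.6% of all named genes. At an unadjusted p-value under 0.05 from limma, 8 of the 23 were lower and 1 higher, against 23.9% and 10.6%.

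Over 7 lists of related genes, those of the amino acid response included, 143 of 160 genes were measured. Of these 21 (14.7%) were called lower and 4 (2.8%) higher, against 8.89% and 5.18% of all named genes, which also held more calls downward, and the median difference was -0.14 against -0.079. The 25 calls became 2 to 35 when single arrays were left out, with 12 if Empty vector replicate 3 was dropped, 3 if Empty vector replicate 2 or USF1 replicate 1 was, and 2 if USF1 replicate 3 was. For these fits, too, calls over all named genes were not counted. Of 8 further genes of aminoacylation 3 were lower, *QRSL1* at -0.60 (SE 0.09), a subunit of the enzyme that makes mitochondrial glutaminyl-tRNA, *PARS2* at -0.53 (SE 0.11), the mitochondrial prolyl-tRNA synthetase, and *SEPSECS* at -0.79 (SE 0.17), which makes selenocysteine on its tRNA. Of 48 genes that modify tRNA, 8 were lower and 2 higher, with *TRIT1* (-0.63, SE 0.10), *ADAT2* (-0.43, SE 0.08), *DUS4L* (-0.81, SE 0.17) and the queuosine enzyme *QTRT1* (0.50, SE 0.10) at the smallest adjusted p-values. Of 22 genes that process tRNA precursors, the ribonuclease P subunits *RPP38* (-0.90, SE 0.17) and *RPP30* (-0.36, SE 0.09) were lower and 0 higher (6 lower and 0 higher at an unadjusted p-value under 0.05 from limma). This is 9.09% lower, near the 8.89% of all named genes. Of 23 genes that transcribe tRNA, the RNA polymerase III subunits *POLR3B* (-0.50, SE 0.09) and *POLR3K* (-0.45, SE 0.11) and the TATA-binding protein *TBP* (-0.36, SE 0.09) were lower, and the alternative subunit *POLR3G* was higher by 0.98 (SE 0.12, limma adjusted p = 0.00422). Of 12 export receptors and genes of the RAN cycle, *XPO7* was lower (-0.42, SE 0.10). Of 7 elongation factors that take up charged tRNA or follow it, 0 were called (1 lower and 1 higher at an unadjusted p-value under 0.05 from limma), and their median difference was 0.095.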

How the data were processed

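Groups and replicate numbers came from the array titles. The authors deposited log2 RMA values, made in R 2.8.0 with justRMA (background subtraction and quantile normalization) on a probe definition without nonspecific probes, after dropping probesets that kept few probes or were mostly called absent, and with ComBat applied for batch effect. No source used here names the batches of these 6 arrays, so the fit holds no batch term, and how the correction affects p-values was not tested.

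USF1 minus Empty vector log2 differences were fitted over all 16569 probesets with lmFit and eBayes of limma 3.58.1 in R 4.3.3 (prior degrees of freedom 4.53), without covariates, and p-values were adjusted over all probesets by the method of Benjamini and Hochberg, with a threshold of 0.05. Probesets were named from the platform annotation by Entrez identifier with current RefSeq symbols (15098 of 15099 probesets of 1 gene matched), 570 probesets of several genes name none, and a gene is represented by its probeset with the highest mean over the 6 arrays. The number of arrays limits the precision. Values on every array are given for *XPOT*, *AIMP1*, genes called at any probeset, and the 6 cytosolic and 6 mitochondrial enzymes with the smallest p-values, with partners set beside them; those of *HARS1*, *NARS1* and *MARS1* were added after their values were seen. From each related list up to 4 called genes are named, and a few uncalled ones chosen after their values were seen. The genes and lists were chosen, from general knowledge, with earlier results of these data known. Ratios of partner genes were compared with an exact permutation test over arrays, 2-sided. The alternatives were other tests, thresholds, priors, weights, normalizations, filters and probeset choices, replicate number as a block, and dropping single arrays. The fit was tested on simulated data.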

Additional observations from a re-analysis of the deposited data

How the results depend on the processing

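The genes called were 8 in all, 4 cytosolic and 3 mitochondrial, and 25 of the related lists. The methods' t-test, with unequal variances, called 0, 0, 0 and 0 of these after adjustment (15 genes lower and 0 higher unadjusted), and its form with equal variances 1, 0, 1 and 1 (16 lower and 0 higher unadjusted). At unadjusted p-values the counts were 15, 9, 4 and 40 with unequal variances (added after seeing the data), 16, 10, 4 and 49 with equal variances, and 15, 9, 4 and 54 with limma. At an adjusted p-value under 0.10 they were 11, 6, 3 and 43. Centring left 5, 2, 3 and 16, a trend prior gave 7 cytosolic genes, array weights 6 cytosolic genes and 48 related ones. Leaving out each array gave 0 to 5 genes in all, 0 to 2 cytosolic, 0 to 3 mitochondrial and 2 to 35 related ones, with no count made over all named genes. Against Empty vector replicate 3 alone, whose spread is then assumed to be that of the USF1 arrays (added after seeing the data) 0, 0, 0 and 1 were called (8 genes lower and 0 higher unadjusted), and 29 of 32 differences were negative. No gene of the list was called higher by any of these tests or settings. The cytosolic minus mitochondrial median was -0.038 with averaged probesets and -0.12 to -0.072 without single arrays.

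Same-numbered arrays of the groups correlated in their deviations by 0.096, 0.25 and 0.13, and each of the 6 arrays correlated best with its own number, which is a hint from the data and not from the design. The deviations were taken from the group means and the same correlations serve both groups. These 6 matches are therefore not independent, and the hint is weak. With replicate number as a block 10 genes were called, 6 cytosolic and 3 mitochondrial, all lower, and 36 of the related lists. Calls rose over all 9586 named genes too, to 1297 lower and 609 higher, from 852 and 497 without the block.

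Signs turned for some uncalled genes. With array weights *EPRS1* was at -0.050, *HARS1* at 0.0064 and *WARS2* at 0.034. Quantile normalization put *HARS1* at 0.0018, *WARS1* at 0.043, *CARS2* at 0.0092 and *WARS2* at 0.014, and centring put them at 0.015, 0.050, 0.014 and 0.015. Averaged probesets put *EPRS1* at -0.0028, *WARS1* at 0.019 and *WARS2* at 0.015, and the probeset with the largest SD put *WARS1* at 0.057 and *WARS2* at 0.084. Against Empty vector replicate 3 alone *EPRS1* was at -0.21 and *WARS2* at 0.010. Without single arrays the ranges were -0.25 to 0.41 for *EPRS1*, -0.12 to 0.022 for *HARS1*, -0.042 to 0.024 for *WARS1*, -0.12 to 0.038 for *WARS2* and -0.015 to 0.27 for *SARS2*. The causes were not tested. All 8 called genes kept negative differences without each array in turn.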
